A study of Mus musculus with 6 samples.

Results

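Prostaglandin synthesis and receptor genes were described in basal keratinocytes of mouse ear epidermis. The group holds 10 genes, chosen by name out of 49671 genes in the deposited table: Pla2g4a, Ptgs1, Ptgs2, Ptges, Ptges2, Ptges3, Hpgd, Ptger2, Ptger3 and Ptger4. All 10 were found, and 8 of the 10 had enough reads to be tested, against 15413 of all 49671 genes. The 8 tested genes passed the limit on low values in all 6 libraries, and Ptger2 and Ptger3 did not pass it. The genes were chosen with earlier results of these libraries known, so their values, fold changes and counts below are a description and are not independent evidence.

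The question was whether stem and progenitor cells of the epidermis express different genes in males, females and castrated males. The study sequenced polyA RNA of 3 groups of CD1 mice, an outbred stock: intact males, females and castrated males, with 2 libraries per group. Each library was made from 100000 living cells sorted as CD34- and integrin alpha 6+, pooled from the ears of 2 littermates. No transgene, age, time after castration or sham operation is named in the labels. Replicates are thus different pools of mice, and the tests measure how pools vary. Litter cannot be told apart from library, and litters may also differ between groups. The labels do not say that a replicate number marks a shared litter. Libraries held 8412487 to 9648154 reads. The basal keratins and sorting markers were high in every library, with Krt5 at 10016 to 13398 CPM (counts scaled to library size), Krt14 at 12468 to 17440 CPM and Itga6 at 317 to 373 CPM, while Cd34 stood at 1.49 to 3.05 CPM. Krt15, a further basal keratin, averaged 12676 CPM in males, 7784 in females and 12450 after castration.

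Prostaglandins are short-lived lipid signals made on demand from arachidonic acid. Cytosolic phospholipase A2 (Pla2g4a) frees arachidonic acid from membranes, a cyclooxygenase (Ptgs1, mostly constitutive, or Ptgs2, the inducible form) turns it into prostaglandin H2, and a terminal synthase makes prostaglandin E2 from that. Prostaglandin E2 acts through the G protein-coupled receptors EP1 to EP4 and is inactivated by 15-hydroxyprostaglandin dehydrogenase (Hpgd). In skin the pathway is known for its part in inflammation, wound repair and the growth of epidermal tumours.

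The members whose values differed most between groups were Ptgs1, Ptgs2, Ptges and Hpgd. Their promoters, 250 bases before to 50 bases after the start site, are shown because these genes carry the differences between groups. Sequences are from RefSeq on GRCm38.p6, written on the gene's strand, and capitals mark the matches to the motifs named below. The start site is that of RefSeq, and for Ptges and Hpgd it differs from the GENCODE gene start. The Ptges window lies inside the GENCODE span of the gene (chr2:30889471-30929863). The Hpgd window is placed on a start site before the GENCODE start at 56294585. A promoter was found for all 10 members.
Ptgs1, chr2:36230176-36230475, plus strand: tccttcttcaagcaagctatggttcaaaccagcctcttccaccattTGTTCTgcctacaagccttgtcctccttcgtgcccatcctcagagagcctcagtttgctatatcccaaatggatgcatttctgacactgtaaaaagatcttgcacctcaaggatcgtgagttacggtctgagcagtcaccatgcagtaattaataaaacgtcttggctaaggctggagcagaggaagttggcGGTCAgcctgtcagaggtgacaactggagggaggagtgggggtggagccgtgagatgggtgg
Ptgs2, chr1:150099781-150100080, plus strand: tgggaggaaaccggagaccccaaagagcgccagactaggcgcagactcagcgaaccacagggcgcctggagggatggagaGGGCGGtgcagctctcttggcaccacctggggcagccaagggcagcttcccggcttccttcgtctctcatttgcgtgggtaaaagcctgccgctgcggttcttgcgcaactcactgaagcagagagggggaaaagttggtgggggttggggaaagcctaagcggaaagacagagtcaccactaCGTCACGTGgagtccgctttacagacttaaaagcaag
Ptges, chr2:30903248-30903547, minus strand: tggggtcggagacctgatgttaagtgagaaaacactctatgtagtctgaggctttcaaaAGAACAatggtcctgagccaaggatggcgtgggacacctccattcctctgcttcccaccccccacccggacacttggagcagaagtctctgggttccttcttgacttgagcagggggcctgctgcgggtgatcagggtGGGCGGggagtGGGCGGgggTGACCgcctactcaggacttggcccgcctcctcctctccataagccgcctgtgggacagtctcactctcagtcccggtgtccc
Hpgd, chr8:56294302-56294601, plus strand: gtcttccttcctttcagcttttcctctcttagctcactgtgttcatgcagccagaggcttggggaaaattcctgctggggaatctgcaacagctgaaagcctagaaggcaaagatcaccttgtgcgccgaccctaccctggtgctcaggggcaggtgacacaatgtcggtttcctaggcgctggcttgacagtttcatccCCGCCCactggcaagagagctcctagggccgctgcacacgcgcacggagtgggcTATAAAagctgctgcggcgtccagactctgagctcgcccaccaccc
Both strands were searched for 9 motifs, with positions counted from the RefSeq start site. In the Ptgs2 window TGACG, the core of the cAMP response element, was matched on the reverse strand at 14 to 18 and overlapped the E-box CACGTG at 17 to 22, and the GC box GGGCGG lay at -170 to -165. The Ptgs1 window held AGAACA, an element bound by androgen and glucocorticoid receptors, on the reverse strand at -204 to -199, and GGTCA, an element bound by estrogen and other nuclear receptors, at -12 to -8. The Ptges window held AGAACA at -191 to -186, GGTCA on the reverse strand at -33 to -29, and the GC box at -53 to -48 and at -42 to -37. The Hpgd window held TATAAA at 5 to 10, which lies before the GENCODE start of the gene, and the GC box on the reverse strand at -50 to -45. These short motifs are common: of 32851 promoters of the same length, 20.8% held TGACG, 7.2% CACGTG, 19.0% AGAACA, 40.5% GGTCA, 13.6% TATAAA and 35.7% GGGCGG. Among the 10 members they were found in 2, 2, 4, 3, 2 and 6. The full cAMP response element TGACGTCA (1.8% of promoters), the AP-1 motif TGANTCA (7.8%) and the NF-kB core GGGNNTTCC (5.8%) had no match in these windows. A match is only a run of letters, and binding was not measured.

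**Figure D1:**
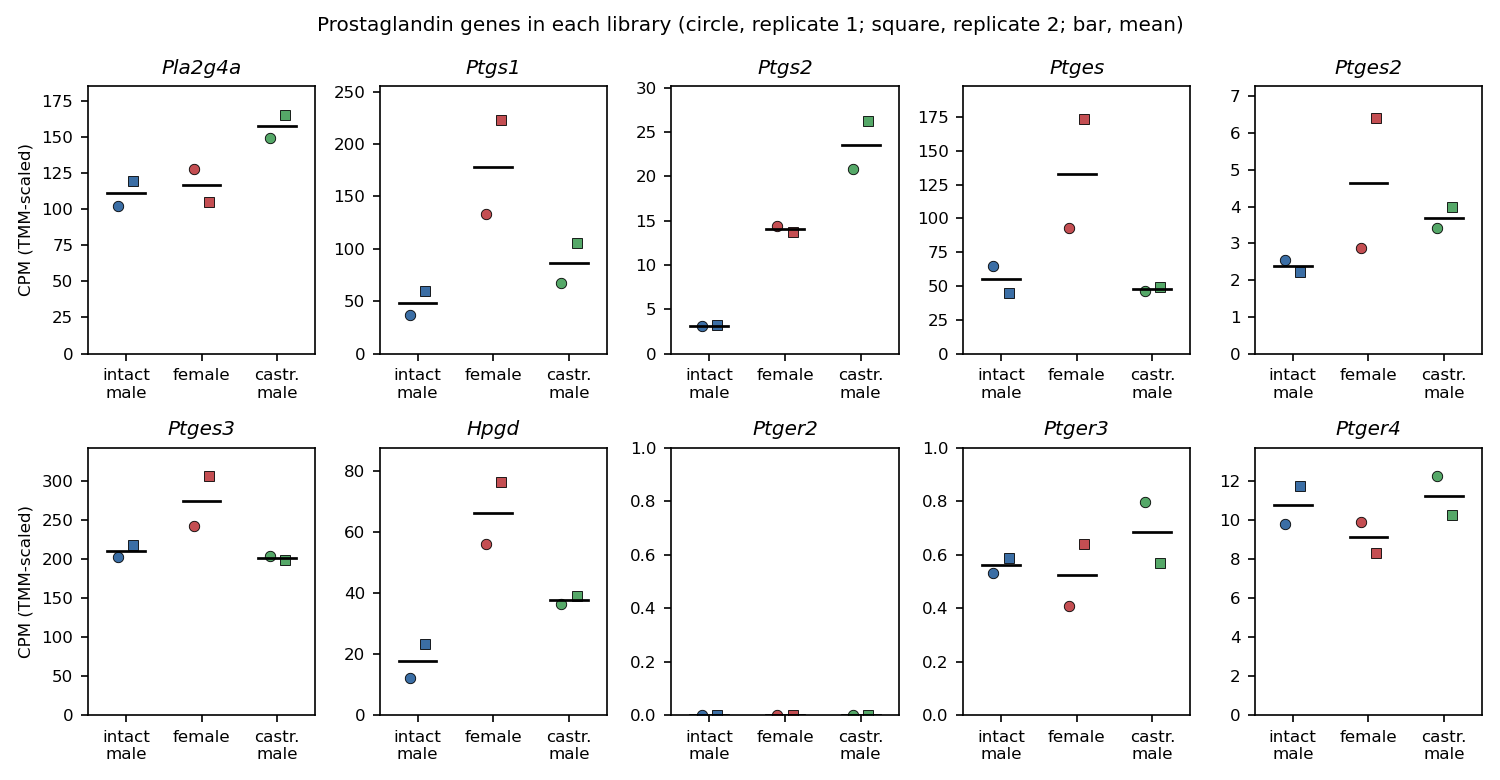
Level of each of the 10 genes (vertical axis, CPM after TMM scaling, each panel on its own scale) in each library, by group (horizontal axis). Circles are replicate 1, squares replicate 2 and bars the mean of 2 libraries. Ptgs2 is lowest in intact males and highest in castrated males without overlap, Ptgs1, Ptges and Hpgd are highest in females, and Ptger2 is at 0 in all 6 libraries.

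The levels of the members were ordered per length, as CPM per kb of exon averaged over the 6 libraries. Ptges3 was the most abundant at 103, with a range of 89.5 to 138 over libraries. Ptges3 encodes p23, a co-chaperone of Hsp90 that is also described as a cytosolic prostaglandin E synthase, so its level is not specific to prostaglandin synthesis. Ptgs1 (26.9, range 9.49 to 57.4), Hpgd (24.1, range 7.15 to 45.4), Pla2g4a (20.1, range 16.0 to 25.8) and Ptges (range 11.4 to 44.1) followed, and these 4 did not differ beyond the spread over libraries. Next came Ptgs2 (2.97, range 0.674 to 5.74), Ptger4 (1.56, range 1.25 to 1.85) and Ptges2 (0.707, range 0.441 to 1.27), neighbours whose ranges also overlapped. Ptger3 stood below them at 0.104, with a range of 0.0719 to 0.140, and Ptger2 at 0. Ptger4, the highest of the 3 receptors, thus lay below every enzyme but Ptgs2 and Ptges2, whose ranges met its own.

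**Figure D2:**
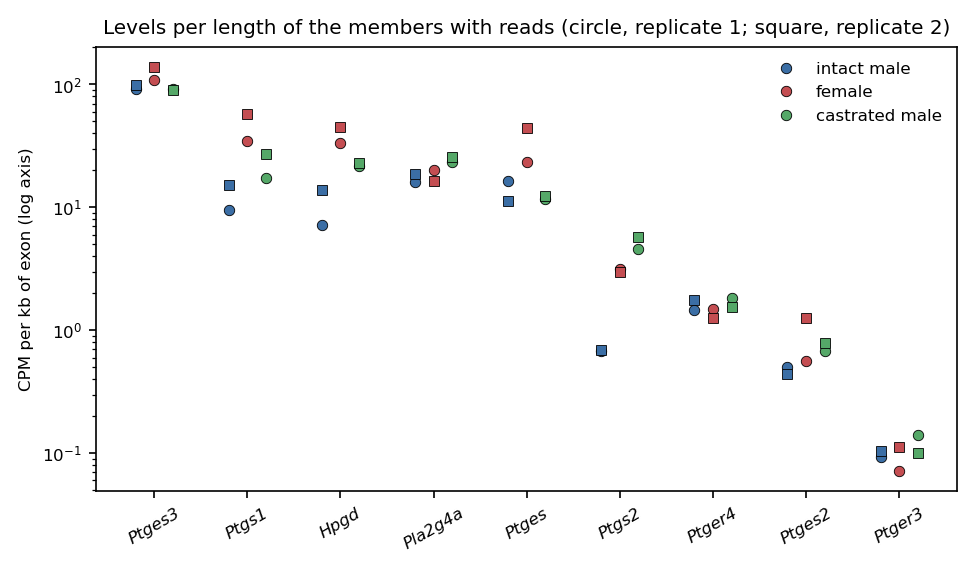
Level per length (vertical axis, CPM per kb of exon, log axis) of the 9 members with reads, in order of their mean (horizontal axis), with 1 point per library coloured by group. Circles are replicate 1 and squares replicate 2. Ptges3 lies above all others, Ptgs1, Hpgd, Pla2g4a and Ptges form a band between 7.15 and 57.4, and Ptger3 lies at or below 0.140.

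Females had more RNA of both cyclooxygenases, of the inducible synthase Ptges and of the inactivating enzyme Hpgd than intact males. Of the 8 tested members 4 were called higher and 0 lower at an adjusted p below 0.05, against 3.7% of all tested genes called higher, 2.39% called lower and 6.1% in either direction. In 6 of the 8 both female libraries lay above both male libraries, which was so for 26.6% of all tested genes. The median log2 fold change of the 8 was 0.98, and that of all tested genes was -0.01. Adjusted p-values here and below are from limma, Benjamini-Hochberg adjusted over all 15413 tested genes, and each fold change is a difference of log2(CPM + 0.5) means with its standard error and 2 libraries per group.

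Castrated males had more RNA of Ptgs2 than intact males, and Ptgs2 was the 1 member called. The calls were 1 higher and 0 lower of 8, where 0.013% of all tested genes were called higher, 0.026% lower and 0.0389% (6 genes) in either direction. In 5 of the 8 both libraries of castrated males lay above both of intact males, against 17.3% of all tested genes. The median of the 8 was 0.52, and of all tested genes 0.00. Against females, castrated males had less RNA of Ptges, with 0 members called higher and 1 lower, where 0.571% of all tested genes were called higher, 1.15% lower and 1.73% in either direction. In 4 of the 8 castrated males lay below females without overlap (28.3% of all tested genes), and in 3 of the 8 above (29.4%). The median of the 8 was -0.32, and of all tested genes 0.01. The comparisons share libraries pairwise, so they are given side by side and not set against each other as separate evidence.

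**Figure D3:**
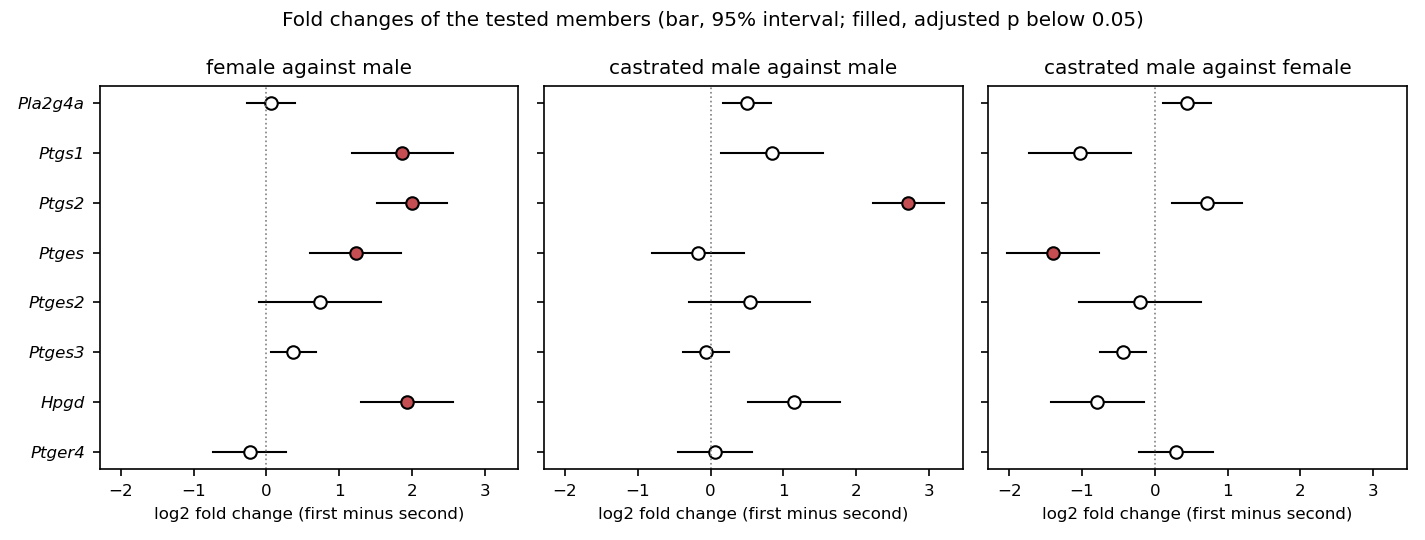
Log2 fold change of each tested member (horizontal axis, first group minus second) with its 95% interval from limma, 1 panel per comparison. Filled points have an adjusted p below 0.05 over all tested genes. Ptgs2 is filled in both comparisons with intact males, Ptgs1, Ptges and Hpgd in females against males, and Ptges on the lower side in castrated males against females.

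Pla2g4a (chr1:149829618-149961290, minus strand, GRCm38), which releases the substrate, stood at 102 and 120 CPM in intact males, 128 and 105 in females, and 149 and 165 after castration. Both libraries of castrated males lay above all others, while males and females overlapped. Separation of a pair of groups in a given direction held for 17.3% to 29.4% of all tested genes, so it is common here. The share of genes separated in all 3 groups was not computed. Castrated against intact males the log2 fold change was 0.51 ± 0.14 (adjusted p = 0.633), against females 0.44 ± 0.14 (adjusted p = 0.136), and females against males 0.07 ± 0.14 (adjusted p = 0.81).

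Ptgs1 (chr2:36230426-36252272, plus strand), the cyclooxygenase usually described as constitutive, stood at 36.9 and 59.5 CPM in intact males, 134 and 223 in females, and 67.3 and 106 after castration. The 3 groups did not overlap, with males lowest and females highest. Means were 48.2 ± 16.0 CPM in males, 178 ± 63.2 in females and 86.7 ± 27.3 after castration (SD, n = 2 each). Females against males the log2 fold change was 1.87 ± 0.31, or 3.66-fold (adjusted p = 0.0162). For castrated against intact males it was 0.84 ± 0.31 (adjusted p = 0.77), and against females -1.03 ± 0.31 (adjusted p = 0.114). Without female replicate 2 the difference between females and males lost its call (adjusted p = 0.158). A tentative transcript model on the opposite strand, Gm43621, shares 148 exon bases (3.8%) with Ptgs1 and had 49 and 51 reads in intact males, 157 and 204 in females, and 64 and 116 after castration. Ptgs1 itself had 346 to 1739 reads, and without a stated strand setting the reads of the shared bases cannot be told apart.

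Ptgs2 (chr1:150100031-150108227, plus strand), the cyclooxygenase induced by growth factors and inflammation, was represented by 29 and 27 reads in intact males, 141 and 107 in females, and 183 and 231 after castration. These are 3.09 and 3.17 CPM in males, 14.4 and 13.7 in females, and 20.8 and 26.3 after castration. The 3 groups were fully separated, and the replicates of a group lay close together. Group means were 3.13 ± 0.0589, 14.1 ± 0.493 and 23.6 ± 3.88 CPM (SD, n = 2 each). Females against males the log2 fold change was 2.00 ± 0.21, or 4.01-fold, with a 95% interval of 1.52 to 2.49 (adjusted p = 0.00376). Castrated against intact males it was 2.72 ± 0.21, with an interval of 2.23 to 3.20 (adjusted p = 0.00439), the second smallest p of all tested genes in that comparison. Castrated males against females differed by 0.71 ± 0.21 without passing the test (adjusted p = 0.114), with an interval of 0.23 to 1.2.

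The call of Ptgs2 between females and males was kept without each library in turn. Between castrated and intact males it was lost without castrated male replicate 1 (2.89, adjusted p = 0.139) or replicate 2 (2.56, adjusted p = 0.219), where 1 library of castrated males was left and its spread was assumed to be that of the other groups. Ptgs2os, a transcript that starts near Ptgs2 and runs the other way without sharing exons with it, had 0 and 2 reads in intact males, 10 and 3 in females, and 9 and 8 after castration. Ptgs2 is an immediate early gene, and the cells were detached with trypsin overnight before sorting. Fos, another immediate early gene, stood at 143 and 99.2 CPM in males, 216 and 226 in females, and 222 and 326 after castration. Males were lowest for Fos as for Ptgs2. Other genes of the same list that respond early were mixed in their order, and they are named here after their values were seen. Nr4a1 was at 66.5 and 7.52 CPM in intact males, 57.5 and 53.8 in females, and 40.8 and 52.0 after castration. Its mean was lowest in males, but the male libraries lay on either side of all others. Dusp1 was at 18.9 and 10.1 CPM in males, 20.4 and 12.9 in females, and 24.0 and 28.7 after castration. Its means had the order of those of Ptgs2, with castrated males above the other groups and males and females overlapping. The mean of Fosl2 was highest in males (135 CPM, against 120.5 in females and 88.5 after castration). For Sik1 and Per1 of the same list, whose values are given below, males were highest and females lowest without overlap. The part of cell dissociation in the Ptgs2 difference was not tested.

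The balance of both cyclooxygenases was taken as the ratio of their levels per length. Ptgs1 exceeded Ptgs2 by 14.1 and 22.1 times in intact males, 10.9 and 19.2 times in females, and 3.81 and 4.75 times after castration. Males and females overlapped in this ratio, and both castrated libraries lay below them. It was computed after the values had been seen and was not tested.

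Ptges (chr2:30889471-30929863, minus strand), the inducible microsomal prostaglandin E synthase that often works with Ptgs2, stood at 64.9 and 44.6 CPM in intact males, 92.7 and 173 in females, and 46.4 and 49.1 after castration. Both female libraries were above all others, and castrated and intact males overlapped. Means were 54.8 ± 14.3, 133 ± 57.1 and 47.7 ± 1.89 CPM (SD, n = 2 each). Females against males the log2 fold change was 1.23 ± 0.28 (adjusted p = 0.0388), castrated males against females -1.40 ± 0.28 (adjusted p = 0.0471), and castrated against intact males -0.17 ± 0.28 (adjusted p = 1). Both calls were close to the threshold. With only the 4 libraries of females and males fitted, the call of females against males was lost. That against males was lost without female replicate 2 (0.78, adjusted p = 0.243), without male replicate 2 (adjusted p = 0.118) and without castrated male replicate 1 (0.0977) or 2 (0.081). That between castrated males and females was lost without female replicate 2 (-0.95, adjusted p = 0.319) and without castrated male replicate 1 (adjusted p = 0.367) or 2 (0.246). Castrated males thus overlapped intact males for Ptges, whereas they lay above females for Ptgs2.

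Ptges2 and Ptges3 encode other enzymes described as prostaglandin E synthases, a membrane-associated form and the co-chaperone p23. Ptges2 (chr2:32395896-32405772, plus strand) had 19 to 50 reads per library, with 2.56 and 2.23 CPM in males, 2.86 and 6.41 in females, and 3.41 and 3.98 after castration. No difference of Ptges2 passed the test (females against males 0.74 ± 0.37, adjusted p = 0.254), and female replicate 2 stood above the other libraries. Ptges3 (chr10:128058954-128077272, plus strand) stood at 203 and 218 CPM in males, 242 and 307 in females, and 204 and 198 after castration. Females were above the other groups without overlap, at a log2 fold change of 0.37 ± 0.14 against males (adjusted p = 0.142) and with castrated males -0.44 ± 0.14 against females (adjusted p = 0.127).

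Hpgd (chr8:56294585-56321043, plus strand), which inactivates prostaglandin E2, stood at 12.0 and 23.1 CPM in intact males, 56.0 and 76.4 in females, and 36.5 and 38.8 after castration. As for Ptgs1, the 3 groups did not overlap, with males lowest, castrated males between and females highest. Means were 17.6 ± 7.86, 66.2 ± 14.4 and 37.7 ± 1.64 CPM (SD, n = 2 each). Females against males the log2 fold change was 1.94 ± 0.28 (adjusted p = 0.01), or 1.71 with an adjusted p of 0.128 without female replicate 2. Castrated against intact males it was 1.15 ± 0.28 (unadjusted p = 0.00278, adjusted p = 0.493), and without male replicate 2 it was 1.60 with an adjusted p of 0.0185. Castrated males against females it was -0.79 ± 0.28 (adjusted p = 0.158), and it passed the test without male replicate 1 (adjusted p = 0.0482), without male replicate 2 (0.0475) and with only the 4 libraries of these groups (0.0439). Per length, Hpgd stood at 0.754 to 1.25 times Ptgs1 in the 6 libraries. Against Ptgs2 its level per length was 10.6 and 19.9 times as high in males, 10.6 and 15.2 times in females, and 4.77 and 4.02 times after castration.

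The receptors were low. Ptger4 (chr15:5206661-5244187, minus strand), the EP4 receptor, which raises cAMP, stood at 9.80 and 11.7 CPM in males, 9.92 and 8.33 in females, and 12.3 and 10.2 after castration. Females lay below castrated males without overlap, and males overlapped both. None of its differences passed the test, with log2 fold changes of -0.23 (95% interval -0.73 to 0.28) in females against males, 0.06 (-0.44 to 0.57) in castrated against intact males and 0.29 (-0.22 to 0.79) in castrated males against females (adjusted p from 0.479 to 1). Ptger4 shares 1015 exon bases (15.3%) with the pseudogene Gm15937 on the opposite strand, which had 2 to 4 reads, and 82 bases with Ttc33, which had 240 to 319 reads. Ptger3 (chr3:157566892-157645888, plus strand), the EP3 receptor, which lowers cAMP, had 5 and 5 reads in intact males, 4 and 5 in females, and 7 and 5 after castration, too few to compare groups at this depth. Ptger2 (chr14:44988195-45003820, plus strand), the EP2 receptor, had 0 reads in all 6 libraries. A count of 0 allows up to 3 reads, which is 0.307 to 0.385 CPM per library, for counting error only.

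**Figure D4:**
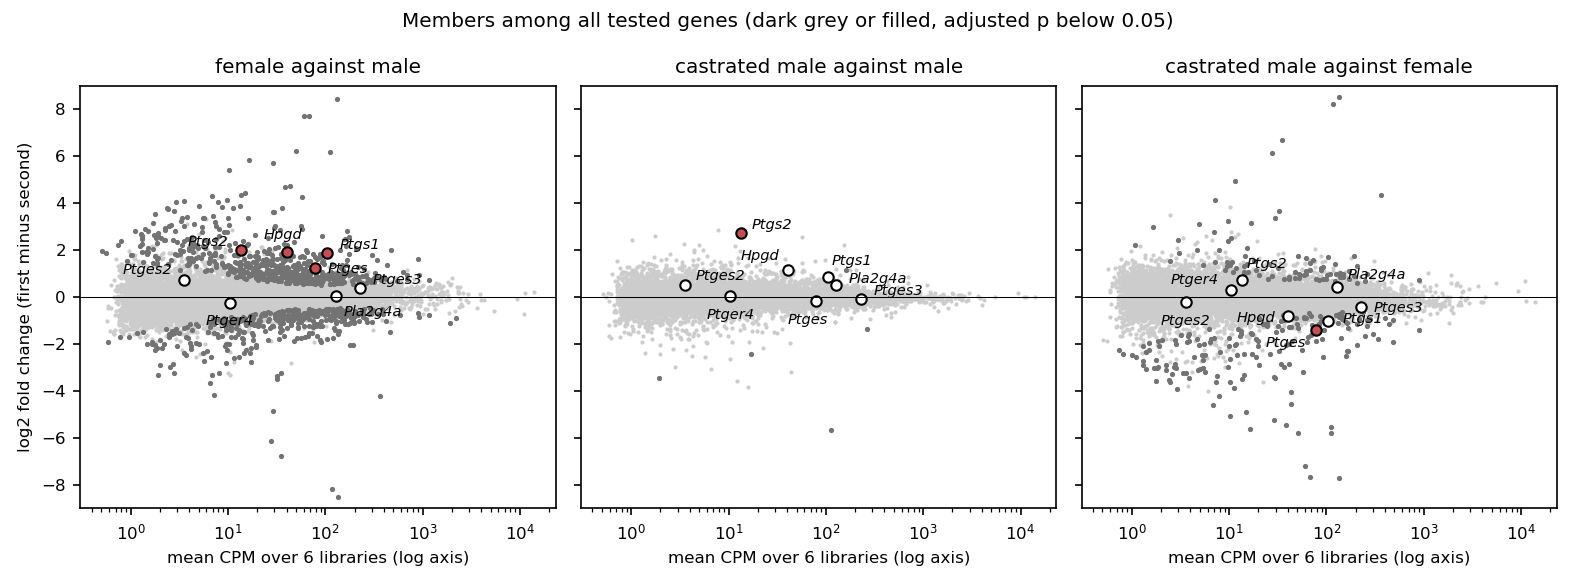
Log2 fold change (vertical axis, first group minus second) against mean level over the 6 libraries (horizontal axis, CPM, log axis) for the 15413 tested genes, with the 8 tested members circled and labelled. Dark grey dots and filled circles have an adjusted p below 0.05. Ptgs2 lies at 2.72 in castrated against intact males, where 6 genes in all were called.

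Genes with the pattern over the 6 libraries most like that of 3 members were found by the root mean square difference of log2(CPM + 0.5) profiles centred on their means, among 10173 genes that averaged 5 CPM or more. For Ptgs1 these were Shcbp1 (0.200), Dbf4 (0.208) and Plk1 (0.212), where the profile of Ptgs1 itself has a root mean square of 0.839 around its mean. Hpgd was closest to Il12rb2 (0.118), Casp1 (0.182) and Dbf4 (0.226), at 0.848 around its own mean. Ptgs2 had no such close neighbour: its nearest were Msx1 (0.548), Cwc22 (0.571) and Cpa4 (0.586), against 1.16 around its own mean. With 6 libraries and 10173 candidates, a close profile is a description only.

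The other genes of the pathway were counted in 7 lists of 79 genes, all present in the table. Of 10 other prostanoid synthases 8 were tested, and 2 were called higher in females than in males with 0 lower (median 0.35). Among all tested genes 3.7% were called higher and 2.39% lower in that comparison (median -0.01). In castrated males against females 1 of the 8 was called lower, against 1.15% of all tested genes. Akr1c18, a reductase of progesterone and of prostaglandins, stood at 28.9 and 18.4 CPM in males, 83.7 and 114 in females, and 6.26 and 4.90 after castration. Its 3 groups did not overlap, with castrated males lowest and females highest. It was higher in females than in males by 2.06 ± 0.25 (adjusted p = 0.00615), lower in castrated males than in females by a log2 fold change of -4.03 ± 0.25 (adjusted p = 0.000183), and at -1.97 ± 0.25 in castrated against intact males (adjusted p = 0.0527). Akr1b8, an aldo-keto reductase, was at 22.5 and 23.9 CPM in males, 39.8 and 81.7 in females, and 25.3 and 29.0 after castration (1.28 ± 0.29 in females against males, adjusted p = 0.0379). The most abundant genes of that list, Akr1b3 and Cbr1, were not called, with 0.19 and 0.06 in females against males.

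All 5 genes of prostaglandin transport and inactivation beside Hpgd were tested. Of them 1 was called higher in females than in males, against 3.7% of all tested genes. That gene was Ptgr1, which reduces the products of Hpgd further, at 28.4 and 29.0 CPM in males, 56.1 and 61.9 in females, and 35.8 and 46.5 after castration. Females were highest and males lowest without overlap, and females against males differed by 1.02 ± 0.16 (adjusted p = 0.0148). Slco2a1, the prostaglandin uptake transporter, averaged 126 CPM in males, 114 in females and 91.1 after castration and was not called. Zadh2, a prostaglandin reductase, averaged 77.7, 96.9 and 90.6 CPM and was not called either.

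Of 20 other phospholipase and arachidonate genes 12 were tested, and Mgll, the monoacylglycerol lipase, was the 1 called. It was at 143 and 155 CPM in males, 110 and 79.1 in females, and 169 and 172 after castration, lower in females than in males (-0.67 ± 0.16, adjusted p = 0.0447) and higher in castrated males than in females (0.87 ± 0.16, adjusted p = 0.0407). Females were thus lowest for Mgll, the reverse of their place for Ptgs1 and Ptges. Of all tested genes 2.39% were called lower in females than in males and 0.571% higher in castrated males than in females. Lpcat3, which loads arachidonate into phospholipids, averaged 110, 139 and 132 CPM and was not called. Of the 6 other prostanoid receptors 2 passed the limit on low values, Ptger1 (3 to 19 reads) and Ptgdr2 (13 to 43 reads), and none was called. The other 4, Ptgdr, Ptgfr, Ptgir and Tbxa2r, had at most 13 reads in a library.

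Among 14 lipoxygenase and leukotriene genes 12 were tested, and Alox8, a lipoxygenase of the epidermis, was the 1 called in females against males. It stood at 13.3 and 3.05 CPM in males, 84.2 and 215 in females, and 12.3 and 16.5 after castration. Females were above all others by a wide margin, at 4.27 ± 0.59 against males (adjusted p = 0.00901), and castrated males were at -3.20 ± 0.59 against females (adjusted p = 0.0414). The most abundant genes of the list, Lta4h and Cysltr1, were not called. Of all tested genes 3.7% were called higher in females than in males and 1.15% lower in castrated males than in females. Of 10 Hsp90, other chaperone and co-chaperone genes around Ptges3, including Hsp90ab1 and Hspa8, none was called in any comparison. At an unadjusted p below 0.05 there were 4 in females against males, 1 in castrated against intact males and 3 in castrated males against females. Among all tested genes 24.9%, 5.9% and 21.6% had such a p in these comparisons.

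Genes that respond to cAMP, the second messenger of EP2 and EP4, were called in both directions. Of 14 listed, 10 were tested. In females against males 1 was called higher and 2 lower, against 3.7% and 2.39% of all tested genes. Fos, whose values are given above, was higher by 0.89 ± 0.21 (adjusted p = 0.0462). Sik1, a kinase induced by cAMP, was at 55.6 and 68.3 CPM in males, 37.2 and 19.7 in females, and 43.6 and 44.1 after castration. Females against males it was at -1.17 ± 0.26 (adjusted p = 0.0378). Per1, a clock gene, was at 276 and 173 CPM in males, 107 and 88.3 in females, and 163 and 148 after castration. Females against males it was at -1.16 ± 0.21 (adjusted p = 0.0208). Without female replicate 2 all 8 pathway genes called in females against males kept their direction and lost the call, with adjusted p from 0.0917 (Akr1c18) to 0.294 (Fos), and Mgll and Alox8 lost it in castrated males against females (0.195 and 0.392). Both were also lost without either library of castrated males, with adjusted p from 0.209 to 0.358. The call of Akr1c18 between castrated males and females held in every alternative run. In castrated against intact males none of the 7 lists had a gene called. At an unadjusted p below 0.05 there were 1, 1, 2, 0, 2, 4 and 1 genes in the phospholipase, synthase, transport, receptor, lipoxygenase, cAMP and co-chaperone lists, of 12, 8, 5, 2, 12, 10 and 10 tested, where 5.9% of all tested genes had such a p.

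**Figure D5:**
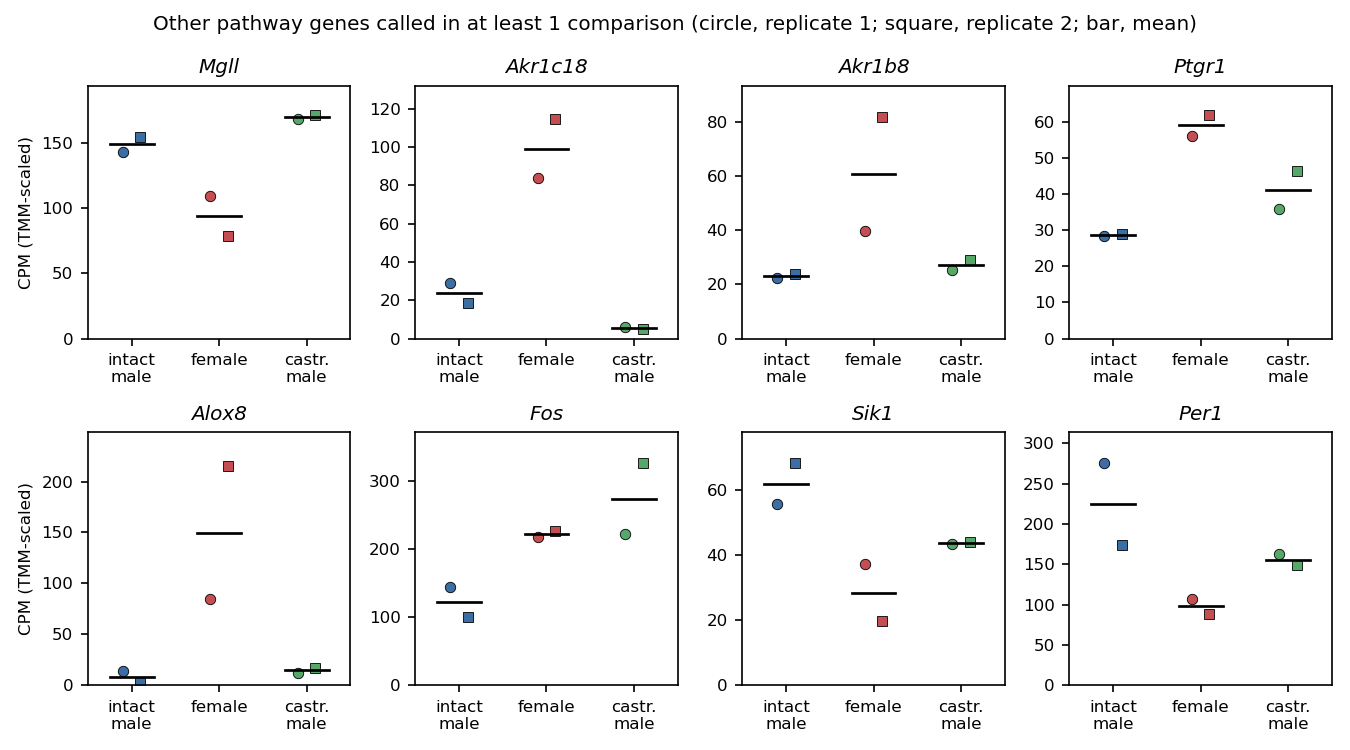
Level (vertical axis, CPM after TMM scaling, each panel on its own scale) of the 8 other pathway genes called in at least 1 comparison, by group (horizontal axis). Circles are replicate 1, squares replicate 2 and bars the mean of 2 libraries. Akr1c18, Akr1b8, Ptgr1 and Alox8 are highest in females, Mgll, Sik1 and Per1 are lowest in females, and Akr1c18 is lowest in castrated males.

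Markers of activated keratinocytes and of antigen presentation moved with the female group, in which Ptgs1, Ptges and Hpgd were highest. The summed level of 8 wound or activated keratinocyte markers was 971 and 1049 CPM in males, 1845 and 3980 in females, and 893 and 1016 after castration. In females against males 5 of these 8 were called higher, against 3.7% of all tested genes. The summed level of 7 Langerhans and dendritic cell markers was 365 and 422 CPM in males, 1069 and 2333 in females, and 394 and 458 after castration. There the 3 genes called higher were Cd74, H2-Aa and H2-Ab1, while Cd207, the marker that defines Langerhans cells, stood at 5.01 to 8.46 CPM in all libraries with no group apart. The 8 spinous and granular markers summed to 1844 and 1627 CPM in males, 1805 and 1997 in females, and 2055 and 2218 after castration. In females against males 3 of them were called higher and 1 lower, where 3.7% and 2.39% of all tested genes were. There 7 of the 8 had positive fold changes (median 0.75) and 7 an unadjusted p below 0.05 (limma), against 24.9% of all tested genes. Dsg1a, the 1 called lower, held a large part of the sum, with means of 1015 CPM in males and 630 in females. None of the 8 basal keratinocyte markers was called in any comparison. In females against males 3 of the 8 had positive fold changes (median -0.28), and 4 had an unadjusted p below 0.05 (limma). Those 4, Krt15, Itgb4, Col17a1 and Dst, were lower in females, each without overlap. In castrated against intact males 0 of the 8 had such a p. Female replicate 2, which was highest for Ptgs1, Ptges and Hpgd, was also highest for the activated keratinocyte and the dendritic sums. The part of these cells or states in the female differences was not tested, and in bulk RNA fewer cells of a type and less RNA per cell cannot be told apart. Mast cells, which make prostaglandins, left little trace: their 7 markers summed to 0.613 to 2.96 CPM, and Cpa3, Mcpt4, Cma1, Fcer1a and Ms4a2 had 0 reads in all 6 libraries. In castrated against intact males, where Ptgs2 was called, none of the 8 activated keratinocyte and none of the 7 dendritic markers was called (0 of each at an unadjusted p below 0.05). None of the 8 spinous and granular markers was called there either, but all 8 had positive fold changes (median 0.73) and 5 an unadjusted p below 0.05, against 5.9% of all tested genes. Of 8 sebaceous gland and infundibulum markers none was called there, and 1 had a positive fold change (median -0.44). Krt79 was the 1 of these with an unadjusted p below 0.05 (limma), at -1.06 (adjusted p = 0.0925). The part of these cells or states in the Ptgs2 difference was not tested.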

How the data were processed

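The table covers polyA RNA of 6 libraries. The tools listed per the submitters' processing notes are STAR 2.7.5a, HTSeq 0.11.1, Picard and FastQC, with GRCm38/mm10. The annotation, the strand setting and the scaling were not given in the sources used here. Each deposited value is a score: from the values, a read count that had been scaled to a library total of about 20000000 and rounded. In every library 100.0% of values lay within 0.5 of a multiple of 1 step, where 42.1% to 48.2% of arbitrary whole numbers would, and dividing by it gave whole reads (8412487 to 9648154 per library). Tested on 12 simulated columns, this gave back every simulated read number (100.0% of 49671 genes). Read numbers are thus reconstructed from the scores, and because of the rounding a stricter check of low values did not accept them as recovered counts. CPM used TMM factors computed from those reads. Genes with 1.16 CPM in 2 libraries and 15 reads in total were tested with limma 3.58.1 (R 4.3.3) on log2(CPM + 0.5), in a single fit of the 6 libraries that left 3 residual degrees of freedom (two-sided p-values). Exon lengths are from mouse GENCODE release 21 (99.3% of identifiers matched), promoters from RefSeq. The members and lists were chosen with earlier results of these data known. Named genes are all members, up to 4 called and the 2 most abundant genes per list, and the 3 genes closest to Ptgs1, Ptgs2 and Hpgd. Alternatives covered scaling, pseudocount, filter, replicate block, the libraries fitted and each library left out. The planned negative binomial tests were not run because the deposited values are not counts.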

Additional observations from a re-analysis of the deposited data

How the results depend on the processing

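Another scaling of the libraries changed no call of a member. Members called in castrated males against females fell from 1 to 0 with a pseudocount of 0.1 CPM and with no filter beyond 1 read, and were 2 with only the 4 libraries compared. With no filter, 1 member (Ptgs2) in place of 4 was called in females against males. With only the 4 libraries compared, Ptgs1, Ptgs2 and Hpgd were called there and Ptges was not. Genes called in females against males numbered 940, 103 with no filter and 265 with only the 4 libraries. In castrated against intact males they numbered 6, 11 with a pseudocount of 2 CPM and 2 with no filter. In castrated males against females they numbered 266, 33 with no filter and 560 with only the 4 libraries.

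Leaving out 1 library at a time, genes called ranged from 49 to 1773 in females against males, 1 to 74 in castrated against intact males and 21 to 1323 in castrated males against females. Members called ranged from 1 to 5, 0 to 2 and 0 to 3. Small fold changes changed sign. Pla2g4a in females against males ran from -0.067 (without female replicate 1) to 0.20 (without female replicate 2), and was -0.038 without male replicate 1. In castrated against intact males Ptges ran from -0.44 (without male replicate 2) to 0.10 (without male replicate 1), and Ptger4 from -0.058 (without male replicate 1) to 0.19 (without castrated male replicate 2), with -0.053 without castrated male replicate 1. Ptges2 in castrated males against females ran from -0.72 (without female replicate 1) to 0.32 (without female replicate 2). The cause was not tested, beyond the fewer samples of these fits. For the pathway genes called, alternatives were added after their values had been seen. None changed sign, and Akr1b8, Mgll, Sik1 and Fos in females against males lost their calls without most single libraries, at adjusted p from 0.0581 to 0.294, as did Per1 without female replicate 2 or either library of castrated males (0.0523 to 0.179).

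Deviations of same-numbered libraries correlated at -0.15 (male and female), -0.01 (male and castrated male) and 0.19 (female and castrated male) over tested genes. The labels do not say what a replicate number marks. The library titled male 2 has the library name Male3, and the number in the title was used. With 2 libraries per group, these values cannot tell whether the numbers pair libraries. With a replicate block 162 genes were called in castrated males against females, among them Ptgs1 (-1.03, adjusted p = 0.0143). Ptges lost its calls under the block, at 1.23 in females against males (adjusted p = 0.0585) and -1.40 in castrated males against females (adjusted p = 0.0737). The planned count-model tests were not run, since the deposited scores are not counts. Depth limits Ptger3, Ptger2 and, less so, Ptges2.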
